A study of Homo sapiens with 4 samples.

Results

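TCF7L2 peaks and H3K27Ac peaks of LNCaP cells were counted around every protein-coding gene, and all 20162 genes were ranked by each count. A gene's window was its span on hg19 plus 50 kb on each side, and a peak was counted where it overlapped the window by at least 1 bp. No gene was chosen or left out by its value, so the 20162 genes ranked are the whole set, and 2 of the 4 libraries of the series supplied the counts. All libraries came from LNCaP, a line grown from a lymph node metastasis of prostate cancer that responds to androgens. The TCF7L2 library was made from cells of passage 15 kept in RPMI with 10% FBS that had not been charcoal-stripped. The paper gives a lower share of FBS for it. The H3K27Ac library was made from cells of passage 20 kept in RPMI with charcoal-stripped serum and, by the paper, given ethanol vehicle. A further H3K27Ac library from cells given 10 nM DHT, the androgen dihydrotestosterone, for 4 h is used below only as a second reading of acetylation. The input library had no list of peaks analysed here. Serum, passage, sequencer and peak settings differed between both sides, and each side had 1 library, so what differed between the lists cannot be told apart from what differed between the cultures, and no comparison below carries a test.

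TCF7L2 is an HMG-box transcription factor at the end of the Wnt pathway. Wnt ligands bind Frizzled and LRP receptors, the complex that marks beta-catenin for destruction is held back, and beta-catenin then joins TCF/LEF factors on DNA. Without beta-catenin these factors sit with TLE corepressors. TCF7L2 is best known from colon epithelium, where it keeps crypt progenitors dividing. H3K27Ac, acetylation of lysine 27 of histone H3, marks active promoters and enhancers, so setting both lists side by side shows where the factor lay in chromatin with this mark and where it did not.

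The TCF/LEF recognition sequence was looked for as CTTTG followed by AT, AA, TT or TA, on both strands of GRCh37, the reference sequence of hg19. Of the 20955 TCF7L2 peaks, 34.9% (34.3% to 35.6%) held at least 1 of the 4 forms in the 200 bp at their center, against 14.8% (14.3% to 15.3%) of windows of the same length 1000 bp away. Intervals here and below are 95% Wilson intervals, which cover counting error only. The 10 sequences that follow are from genes that stood at the head of the rankings described below, and they were chosen after their values were seen. Each is 80 bp of the tallest peak in the gene's window that held a form at its center, printed 5′ to 3′, with the match in capitals.

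RAD51B, chr14:68555816-68555895, plus strand: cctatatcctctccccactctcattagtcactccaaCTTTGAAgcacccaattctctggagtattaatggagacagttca
PCDH7, chr4:30759158-30759237, plus strand: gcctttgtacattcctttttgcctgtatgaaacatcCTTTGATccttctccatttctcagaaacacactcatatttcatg
PPP3CA, chr4:102036037-102036116, plus strand: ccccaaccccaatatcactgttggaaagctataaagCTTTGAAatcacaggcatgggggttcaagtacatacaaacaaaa
AXIN2, chr17:63553348-63553427, minus strand: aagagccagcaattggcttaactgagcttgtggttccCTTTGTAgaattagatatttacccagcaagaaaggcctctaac
MET, chr7:116410918-116410997, minus strand: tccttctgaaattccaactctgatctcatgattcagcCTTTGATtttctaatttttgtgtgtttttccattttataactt
KLF6, chr10:3852552-3852631, plus strand: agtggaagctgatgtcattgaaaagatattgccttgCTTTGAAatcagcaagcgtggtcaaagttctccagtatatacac
HMGA2, chr12:66280907-66280986, minus strand: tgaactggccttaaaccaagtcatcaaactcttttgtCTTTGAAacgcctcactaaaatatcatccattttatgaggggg
EREG, chr4:75186370-75186449, minus strand: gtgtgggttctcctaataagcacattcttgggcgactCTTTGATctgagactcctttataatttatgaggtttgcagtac
BLID, chr11:122020134-122020213, minus strand: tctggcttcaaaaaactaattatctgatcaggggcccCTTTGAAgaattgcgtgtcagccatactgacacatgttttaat
GSE1, chr16:85364523-85364602, minus strand: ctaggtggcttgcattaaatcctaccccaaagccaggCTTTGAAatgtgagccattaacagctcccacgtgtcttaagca

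The peaks behind these sequences were 126 tags tall at HMGA2, 140 at EREG, 157 at KLF6, 159 at MET and GSE1, 183 at BLID, 202 at RAD51B, 218 at PPP3CA, 219 at PCDH7 and 225 at AXIN2. The height of a peak is the pileup of sequenced tags at it, and the median of the whole TCF7L2 list was 31 tags. The peaks at PPP3CA and KLF6 lay in an H3K27Ac peak and those at the other 8 genes did not. Those of KLF6, EREG and BLID lay between protein-coding genes and the other 7 in introns. In PCDH7 the lower-case bases hold a further match, CTTTG followed by TA. At RAD51B, 2 taller peaks held none of the forms, and at PCDH7, MET, HMGA2 and GSE1 there was 1 such peak. A match is a description of letters and not a measured contact.

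TCF7L2 peaks lay near fewer genes than H3K27Ac peaks. At least 1 TCF7L2 peak lay within 50 kb of 13458 genes, 66.7% of all, and at least 1 of the 57623 H3K27Ac peaks within 50 kb of 18236 genes, 90.4% of all. The H3K27Ac list was the longer, and with the 15000 tallest peaks of each list the numbers were closer, 11211 and 13015 genes. The number of TCF7L2 peaks per gene had a median of 1 and quartiles of 0 and 3, reached 6 at the 95th percentile and 11 at the 99th, and was highest at 74. The number of H3K27Ac peaks per gene had a median of 4 and quartiles of 2 and 7, reached 12 at the 95th percentile and 19 at the 99th, and was highest at 110. Both kinds lay near 12841 genes (63.7%) and neither near 1309 (6.49%). TCF7L2 alone lay near 617 genes, 3.06% of all, and H3K27Ac alone near 5395, 26.8% of all. TCF7L2 peaks were narrow, with a median width of 329 bp, and covered 7.82 Mb of the genome in all. H3K27Ac peaks had a median width of 1769 bp and covered 129 Mb. No window held 3632 TCF7L2 peaks (17.3%) and 11283 H3K27Ac peaks (19.6%).

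Most genes share their peaks with neighbors: the windows of 19145 genes (94.96%) overlapped that of another gene, and a TCF7L2 peak in a window lay in a median of 2 windows. Genes in a cluster therefore repeat the same peaks and are not separate readings.

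The genes with many peaks of one kind tended to have many of the other, but the tops of both rankings were mostly different genes. Spearman's rho between both counts was 0.366 across the 20162 genes, which share 2 libraries and, for neighbors, peaks. With H3K27Ac after DHT in place of vehicle it was 0.362, while both H3K27Ac counts correlated at 0.945 with each other. Long genes have large windows, and the size of the window correlated at 0.185 with the TCF7L2 count and at 0.314 with the H3K27Ac count. With window size removed from both ranks the correlation was 0.330. With the genes split by window size into 5 equal groups, rho was, from small to large windows, 0.446, 0.376, 0.308, 0.235 and 0.312. Of the 202 genes in the top 1% of each ranking, 22 (10.9% of each list) were in both. The TCF7L2 top had at least 11 TCF7L2 peaks per gene, a median of 9 H3K27Ac peaks and a median window of 280 kb. The H3K27Ac top had at least 19 H3K27Ac peaks per gene, a median of 4 TCF7L2 peaks and a median window of 483 kb. No TCF7L2 peak lay near 33 of the latter, and no H3K27Ac peak near 2 of the former.

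**Figure D1:**
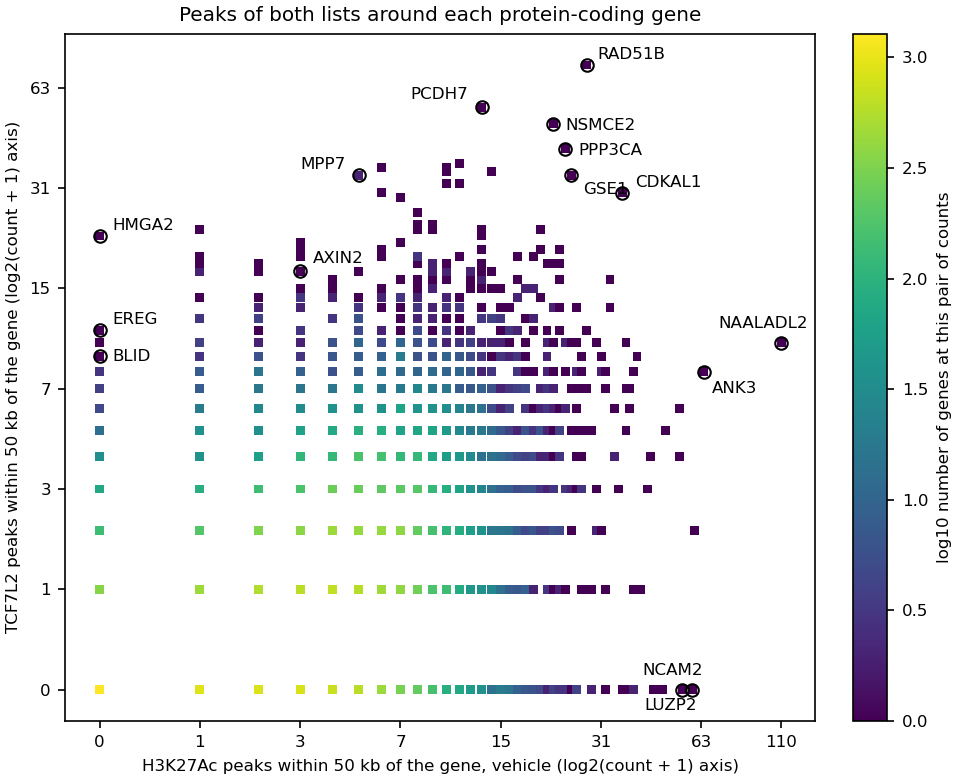
Peaks within 50 kb of each of the 20162 protein-coding genes, H3K27Ac with vehicle along the x axis and TCF7L2 along the y axis, both on a log2(count + 1) axis. Each square is a pair of counts, colored by the log10 number of genes that have it, and circles mark named genes, from HMGA2 with 22 TCF7L2 and 0 H3K27Ac peaks at the left to NCAM2 with 0 and 59 at the lower right.

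RAD51B, a gene of homologous recombination repair, had the most TCF7L2 peaks. The gene lies at chr14:68286496-69196935, and its window of 1010 kb held 74 TCF7L2 and 28 H3K27Ac peaks, the latter rank 49. The TCF7L2 peaks had a median height of 44 tags and reached 215, and 13 of the 74 overlapped H3K27Ac. None lay at the start of the gene, and the first came 114 kb into it. Next was PCDH7, a protocadherin gene at chr4:30721991-31148427, with 55 TCF7L2 peaks of a median of 45 tags. It had 13 H3K27Ac peaks, the tallest of 28 tags, and 8 of its 55 TCF7L2 peaks overlapped them. NSMCE2, whose product is a SUMO ligase of the SMC5/6 repair complex, had 49 TCF7L2 and 22 H3K27Ac peaks, and 13 of the 49 lay in H3K27Ac.

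PPP3CA, which encodes the catalytic subunit of calcineurin, a phosphatase, stood apart from the other leaders in its overlap. All of its 41 TCF7L2 peaks lay in H3K27Ac, and it was the only one of the 289 genes with at least 10 TCF7L2 peaks of which this was true. Its 24 H3K27Ac peaks covered 335 kb of a window of 425 kb, and the widest spanned 194 kb at a height of 147 tags. Over all 289 genes the share of a gene's TCF7L2 peaks in H3K27Ac had a median of 26.7% and quartiles of 10% and 41.7%. It was 0 for 28 genes and over 50% for 36.

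VTI1A, a SNARE gene next to TCF7L2 itself, had 37 TCF7L2 and 11 H3K27Ac peaks, and 1 of the former had the greatest height of the list, 229 tags. SMAD3, which carries TGF-beta signals to DNA, had 35 and 10, and PHLDB2 had 35 and 14. FANK1 and the helicase gene DHX32, which lie side by side, had 36 TCF7L2 peaks each, partly the same, with 6 and 10 H3K27Ac peaks. PDP1, a phosphatase of the pyruvate dehydrogenase complex, and MPP7, a cell polarity scaffold, each had 34 TCF7L2 and 5 H3K27Ac peaks. PALLD, an actin-binding protein gene, had 32 and 10. ZBTB20, which encodes a zinc finger repressor, had 32 TCF7L2 peaks, none in vehicle H3K27Ac, beside 11 H3K27Ac peaks with vehicle and 24 with DHT. GSE1 had 34 and 25. CDKAL1, a tRNA-modifying enzyme gene, was the only one of these 15 genes with fewer TCF7L2 than H3K27Ac peaks, 30 against 36. MET, tied with it at 30 TCF7L2 peaks, had 6 of H3K27Ac. In all, 34 genes had at least 20 TCF7L2 peaks and 16 had at least 30.

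The H3K27Ac ranking was led by long genes, and its first 15 had windows from 440 to 1653 kb against a median of 127 kb over all genes. NAALADL2, at chr3:174156363-175528336, had 110 H3K27Ac peaks that covered 658 kb of a window of 1472 kb, and 10 TCF7L2 peaks, 8 of them in H3K27Ac. ANK3, the ankyrin-G gene, had 64 H3K27Ac and 8 TCF7L2 peaks. NCAM2, a neural adhesion gene, had 59 and 0. LUZP2 had 55 and 0. PDE4D, a phosphodiesterase of cAMP, had 54 and 4, LPP, a focal adhesion gene, had 54 and 6, and FOXP1, a forkhead factor gene, had 44 and 4. KCNMA1, the BK potassium channel gene, had 40 and 9. At CNBD1, EPHA6, FBXL17, STXBP5L, LIMCH1 and the unnamed ENSG00000285708 that overlaps FOXP1, TCF7L2 peaks numbered from 0 to 5. At least 20 H3K27Ac peaks lay near 201 genes and at least 30 near 44.

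**Figure D2:**
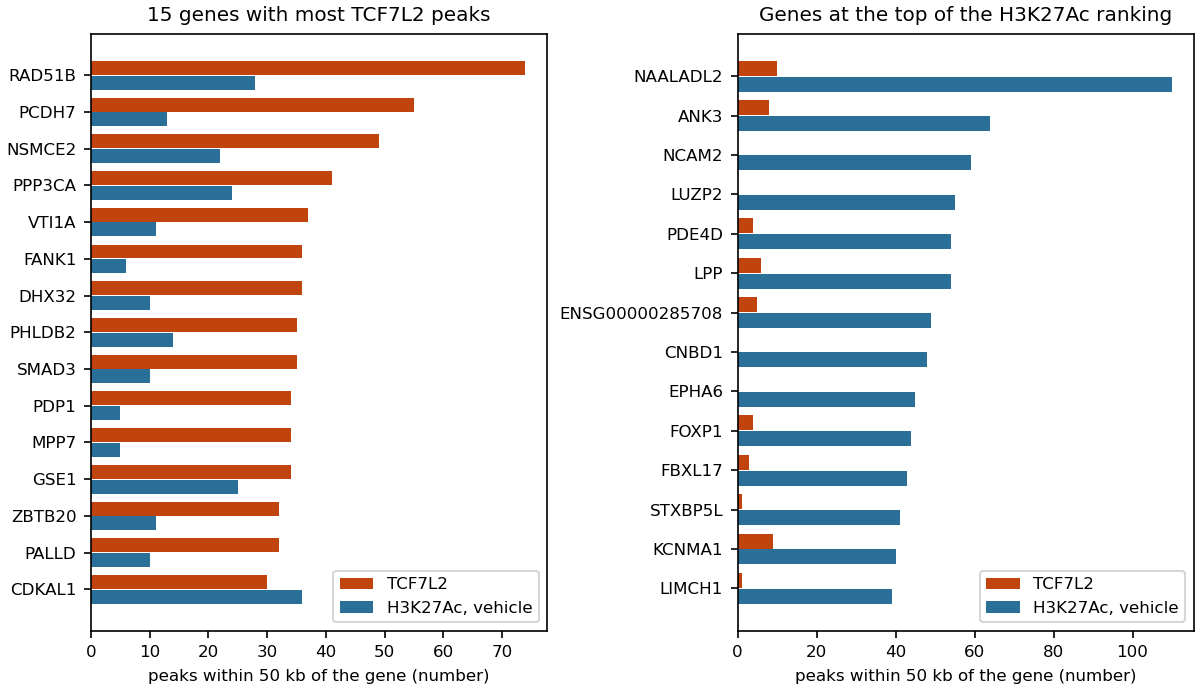
Number of peaks within 50 kb of the 15 genes with most TCF7L2 peaks (left) and genes at the top of the H3K27Ac ranking (right), with TCF7L2 in orange and H3K27Ac with vehicle in blue. RAD51B had 74 TCF7L2 peaks beside 28 of H3K27Ac, and NAALADL2 had 110 H3K27Ac peaks beside 10 of TCF7L2.

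The 22 genes in the top 1% of both rankings included, beside RAD51B, NSMCE2, PPP3CA, GSE1 and CDKAL1, the polarity genes PARD3 (16 TCF7L2 and 33 H3K27Ac peaks) and MAGI1 (16 and 23), the protein kinase C gene PRKCA (18 and 22) and the adenosine kinase gene ADK (13 and 26). THADA had 20 of each. ATXN1, a transcriptional regulator gene, had 23 and 20, with 2 of the 23 in H3K27Ac. VMP1, an autophagy gene, had 18 and 21, with 10 of the 18 in H3K27Ac. UTRN, the utrophin gene, had 13 and 33, and ZFHX3, a homeobox factor gene, had 11 and 28. The others were LRMDA, GULP1, VGLL4, FNDC3B, AFF1, PSD3, AOPEP and ENSG00000255872, with 11 to 20 TCF7L2 and 20 to 23 H3K27Ac peaks each.

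Counted per length of window the order changed. Among genes with windows that do not overlap, DHX32 had 22.5 TCF7L2 peaks per 100 kb of window, PDP1 20.2, GPR15, which encodes a chemoattractant receptor, 17.5, and SMAD3 15.1. KLF6, a zinc finger factor gene at chr10:3818188-3827473, followed with 13.7 per 100 kb, MET, the hepatocyte growth factor receptor gene, with 13.3, and BHLHE40, a transcriptional repressor gene, with 13.2. NSMCE2 had 13.1, the elongation factor gene SUPT4H1 13.0 and AXIN2 12.8. H3K27Ac was sparse at several of them: BHLHE40 had 14 TCF7L2 peaks and 1 H3K27Ac peak, GPR15 had 18 and 2, and KLF6 had 15 and 3. That of BHLHE40 was 91 tags tall and held 4 of the 14. The densest H3K27Ac was at CYSRT1, with 14.8 peaks per 100 kb, COASY, a coenzyme A synthesis gene, with 13.4, CEBPE, a myeloid factor gene, with 12.6, TRIM7 with 12.6, and BARD1, the partner of BRCA1, with 12.5. ELMO3 and ANKRD13D had 12.4 each and AL590560.1 had 12.0. GTF2H2C, with 14.1, and PPIAL4A, with 11.9, belong to families of near-identical copies, so their peaks are uncertain. TCF7L2 peaks were absent at BARD1, CEBPE, ANKRD13D and PPIAL4A.

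The difference between a gene's percentile in the TCF7L2 ranking and its percentile in the H3K27Ac ranking was at least 50 points in favor of TCF7L2 for 1264 genes, 6.27% of all, and at least 50 points in favor of H3K27Ac for 1157, 5.74% of all. The 50 points are a chosen limit and not a test. Which side had more genes depended on the counting: in 7 of 8 alternatives it was H3K27Ac, with 1207 genes towards TCF7L2 and 1725 towards H3K27Ac within 50 kb of the gene start only, and 1094 and 1603 with the tallest 15000 TCF7L2 and 25000 H3K27Ac peaks. The median difference over all genes was 0.345 points.

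HMGA2 had the largest difference towards TCF7L2, 95.1 points. It encodes an architectural chromatin protein of embryonic and tumor cells and lies at chr12:66218240-66360071. Around it lay 22 TCF7L2 peaks with a median of 44 tags and a highest of 144, 1 of them at its promoter, and no H3K27Ac peak with either vehicle or DHT. EREG, which encodes the EGF receptor ligand epiregulin, had 11 TCF7L2 peaks and no H3K27Ac peak. The related ligand genes beside it, AREG (amphiregulin) and EPGN (epigen), had 7 and 6 TCF7L2 peaks, partly the same, and no H3K27Ac peak either. CHST11, a chondroitin sulfotransferase gene, had 10 TCF7L2 peaks, no H3K27Ac peak with vehicle and 2 with DHT. BLID had 9 TCF7L2 peaks with a median of 93 tags, IL18, a cytokine gene, 8, and CTIF, a translation factor gene, 8. ADAM12, a metalloprotease gene, had 8, and FAM83B, an EGF receptor pathway gene, and ALDH1A1, a retinal dehydrogenase gene, had 7 each. ADAM12 and ALDH1A1 had 1 H3K27Ac peak with DHT each, and BLID, IL18, CTIF and FAM83B had none.

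Genes like these were few. Of the 617 genes with TCF7L2 and no vehicle H3K27Ac, 346 had 1 TCF7L2 peak, 135 had 2, 73 had 3, 34 had 4 and 29 had at least 5. With DHT, 130 of the 617 (21.1%) had an H3K27Ac peak, beside 193 of the 1309 genes with neither (14.7%). Of the 29, 21 had none with DHT. Peaks around the 617 genes held a TCF/LEF form at the center in 41.3% of 829 cases (38.0% to 44.6%), beside 38.8% (38.0% to 39.6%) of all TCF7L2 peaks outside H3K27Ac, and had a median height of 30 tags beside 33.

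At the other end lay genes with many H3K27Ac peaks and no TCF7L2 peak. NCAM2 had 59, LUZP2 55 and CNBD1 48. EPHA6 and EPHA3, genes of ephrin receptors, had 45 and 38. The protein kinase D gene PRKD1 and the cadherin gene CDH18 had 39 each. ARHGAP6 had 36, LRRC4C, a synaptic adhesion gene, 32, and CDC42BPA, a kinase gene of the actin cytoskeleton, 29. With DHT these 10 genes had from 30 to 68 H3K27Ac peaks, with NCAM2 at 68. At least 10 H3K27Ac peaks lay near 356 genes without TCF7L2.

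**Figure D3:**
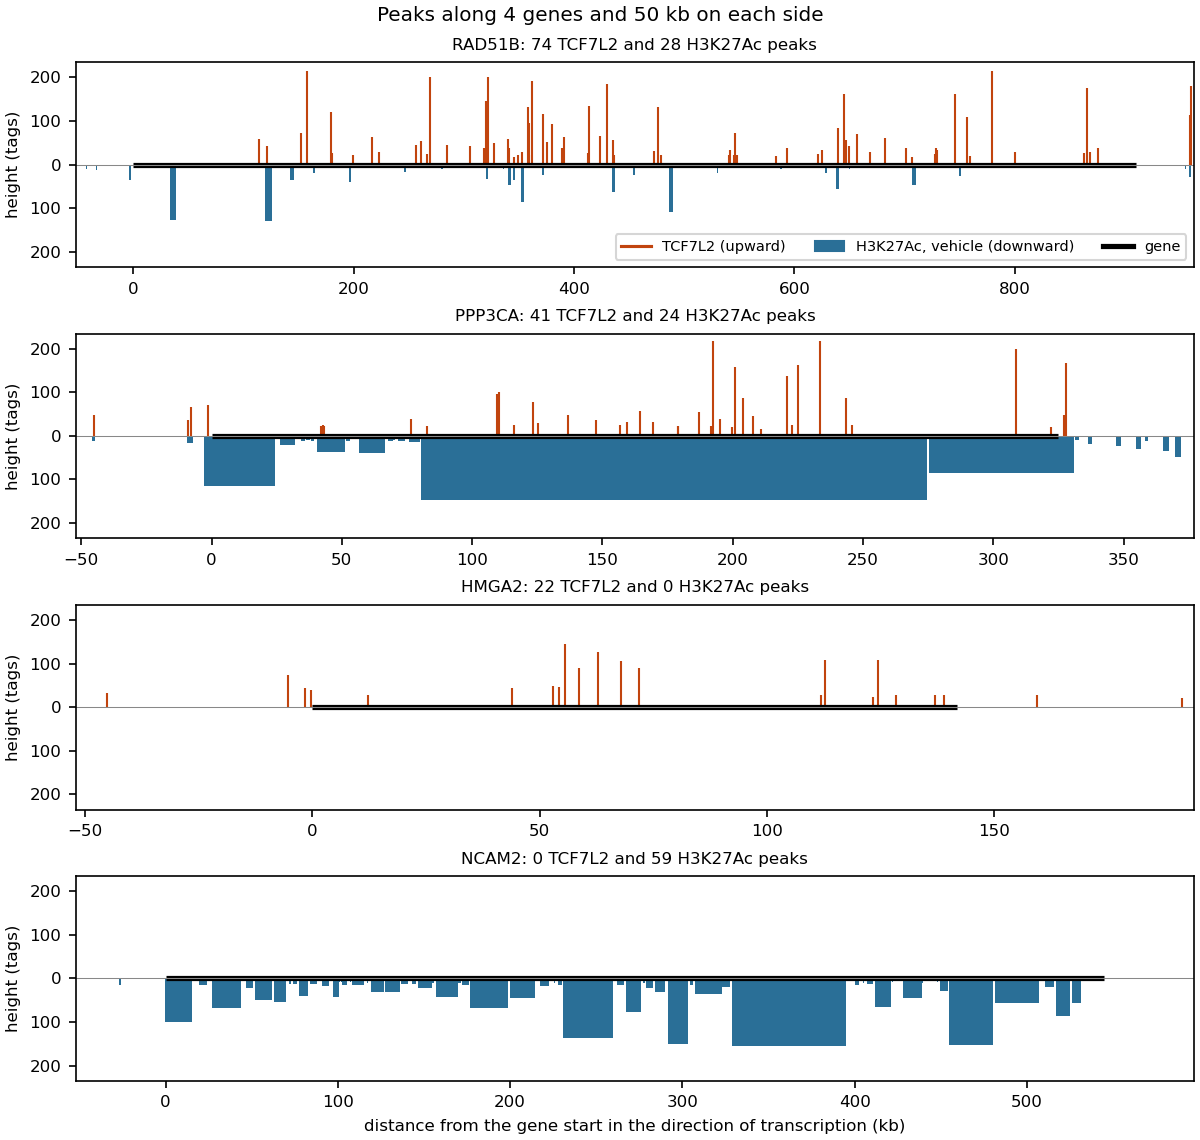
Peaks along RAD51B, PPP3CA, HMGA2 and NCAM2, by distance from the gene start in kb, with TCF7L2 peak height in tags drawn upward as lines at the peak center and H3K27Ac height drawn downward as bars of the peak's width. The black line is the gene. The 41 TCF7L2 peaks of PPP3CA stand over wide H3K27Ac peaks, HMGA2 has 22 TCF7L2 peaks over no H3K27Ac peak, and NCAM2 has 59 H3K27Ac peaks and no TCF7L2 peak.

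At the ends of the ranking, peak heights and motif shares, which it did not use, were close to those around all genes. The 5% of genes with the highest differences were 1048 genes, from 53.2 to 95.1 points, with 3334 TCF7L2 peaks around them. Their TCF7L2 peaks were about as tall as others, with a median of 33 tags against 31 around all genes, and held a TCF/LEF form at the center in 35.3% (33.7% to 36.97%), beside 34.9% of all TCF7L2 peaks. Of them 16.6% overlapped H3K27Ac, against 36.4% around all genes, a share that depends in part on how few H3K27Ac peaks these genes have. Promoters lie inside the windows and DHT counts follow the vehicle counts, so the values of both that follow repeat part of what the ranking used. A TCF7L2 peak lay over the promoter, from 1000 bp before to 100 bp after the gene start, in 21.8% of these genes against 13.9% of all, and an H3K27Ac peak in 21.2% against 48.3% of all. The median gene length was 27.03 kb against 27.2 kb. The 5% with the lowest differences were 1041 genes, from -58.5 to -83.4 points. None had a TCF7L2 peak, which the scale fixed in advance. With ties at their mean, a gene with 1 TCF7L2 peak stood at percentile 45.3 and could not fall this low. The median gene length of the 1041 genes was 54.3 kb, 67.6% had an H3K27Ac peak over the promoter, and the median height of their H3K27Ac peaks was 23 tags, as around all genes. With DHT the median number of H3K27Ac peaks per gene was 2 at the high end, 9 at the low end and 5 over all genes.

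Peak by peak, the lists met most often over promoters. Of all TCF7L2 peaks 6825 (32.6%, 31.9% to 33.2%) overlapped a vehicle H3K27Ac peak. With DHT the share was 33.2% (32.5% to 33.8%), and 398 TCF7L2 peaks overlapped only the DHT list and 274 only the vehicle list. Over promoters, where 2553 (12.2%) of TCF7L2 peaks lay, 82.4% (80.8% to 83.8%) overlapped H3K27Ac. In the bodies of protein-coding genes the share was 31.1% (30.2% to 32.0%) and between protein-coding genes 18.6% (17.8% to 19.5%). Promoters with a TCF7L2 peak numbered 2812, of which 2395 (85.2%) had H3K27Ac too, while 42.3% of the other promoters had it. Seen from the other side, 10.2% (9.95% to 10.4%) of H3K27Ac peaks held a TCF7L2 peak. Those that did had a median of 39 tags and a width of 2579 bp, and those that did not had 20 tags and 1709 bp.

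The tallest TCF7L2 peaks were the least often in H3K27Ac and the least often over promoters. From the lowest class of heights, 15 to 19 tags, to the highest, 150 to 229, the share of TCF7L2 peaks in H3K27Ac fell from 38.1% (36.0% to 40.3%) to 25.1% (22.1% to 28.2%). Over the same classes the share over promoters fell from 18.3% (16.7% to 20.1%) to 2.31% (1.47% to 3.63%). Away from promoters the share in H3K27Ac lay between 24.4% and 27.3% in all 8 classes, with intervals that overlap. Over promoters it was 86.2% (82.3% to 89.4%) in the lowest class and 38.9% (20.3% to 61.4%) in the highest, which held 18 peaks. H3K27Ac peaks went the other way. Of those of 9 to 14 tags 4.18% (3.90% to 4.48%) held a TCF7L2 peak, and of those of 100 to 149 tags 24.04% (22.1% to 26.1%). In the highest class, 150 to 212 tags, the share was 20.7% (15.8% to 26.6%). The part of H3K27Ac peak width in this was not tested.

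The TCF/LEF forms were more frequent in taller TCF7L2 peaks and less frequent over promoters. They occurred at the center of 28.6% (27.5% to 29.7%) of peaks of 15 to 24 tags and 46.9% (44.7% to 49.1%) of those of at least 100 tags. Over promoters the share was 20.3% (18.7% to 21.9%). Away from promoters it was 30.9% (29.6% to 32.3%) inside H3K27Ac and 39.0% (38.2% to 39.8%) outside. These classes differed in mean GC content at the center, which was 59.9% over promoters, 49.7% away from them inside H3K27Ac and 46.9% away from them outside, and its part in the shares was not tested. In windows 1000 bp away the shares were 11.8%, 15.0% and 15.2%.

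**Figure D4:**
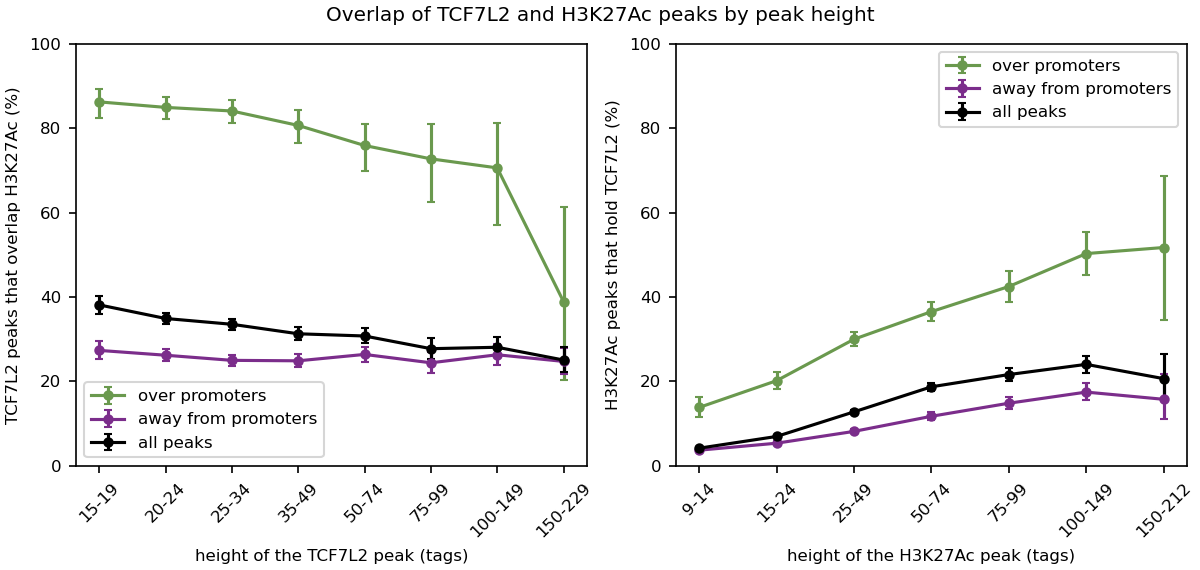
Percent of TCF7L2 peaks that overlap an H3K27Ac peak by TCF7L2 height in tags (left), and percent of H3K27Ac peaks that hold a TCF7L2 peak by H3K27Ac height in tags (right), for all peaks, peaks over promoters and peaks away from them. Bars are 95% Wilson intervals. The left curve for peaks away from promoters stays between 24.4% and 27.3%.

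The labels name LNCaP, a luminal line, and the marker genes of other cell types were set beside it. Of 19 luminal prostate genes 18 had an H3K27Ac peak and 15 a TCF7L2 peak, with medians of 6 and 1. SLC45A3 had 13 H3K27Ac peaks and 1 TCF7L2 peak, and KLK3, the PSA gene, had 10 and 1. TMPRSS2 (6 H3K27Ac peaks), SPDEF (4) and FOLH1 (3) had no TCF7L2 peak. The luminal keratin genes KRT8 and KRT18, which lie side by side, had 9 and 8 TCF7L2 peaks beside 2 H3K27Ac peaks each, and KRT19 had 4 beside 0. Of 10 basal epithelial genes all had a TCF7L2 peak, with a median of 4 against 1 over all genes, and 7 had H3K27Ac, with a median of 1.5 against 4. ITGB4, an integrin gene, had 13 TCF7L2 and 5 H3K27Ac peaks, COL17A1, a hemidesmosome gene, 9 and 5, CAV1, the caveolin gene, 6 and 1, and the keratin genes KRT15 and KRT5 5 and 2 beside 0. The laminin gene LAMA3, with 6 TCF7L2 and 21 H3K27Ac peaks, and the integrin gene ITGA6, with 3 and 10, went the other way. TP63 had 2 of each. The basal KRT15 and the luminal KRT19 lie side by side with windows that largely overlap, so they are not separate readings. In favor of TCF7L2 by 50 points stood 4 of the 10 basal (40%) and 3 of the 19 luminal genes (15.8%), beside 6.27% of all genes.

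Among 8 colon genes 7 (87.5%) had TCF7L2 and 6 (75%) H3K27Ac, beside 66.7% and 90.4% of all genes. At least 50 points towards TCF7L2 stood 3 of the 8 (37.5%), beside 6.27% of all genes. These were KRT20 (7 TCF7L2 and 2 H3K27Ac peaks), CDH17 (6 and 2) and CDX2 (3 and 2). GPA33 (2 and 4), MUC2 (1 and 0), LGALS4 (1 and 4), VIL1 (1 and 8) and CDX1 (0 and 0) did not. TCF7L2 peaks lay near 7 of 10 stromal, 5 of 7 endothelial, 5 of 7 neuroendocrine, 4 of 10 leukocyte and 3 of 8 liver genes, and the first 3 of these shares lay close to the 66.7% of all genes. The summed TCF7L2 peaks were 50 over the 19 luminal, 50 over the 10 basal, 21 over the 8 colon, 23 over the 10 stromal, 16 over the 7 neuroendocrine, 12 over the 7 endothelial, 7 over the 10 leukocyte and 7 over the 8 liver genes. A peak near neighboring genes enters these sums more than once, also across lists, as around KRT19 and KRT15. Which cells each library came from was not tested beyond these counts, and their part in the rankings was not tested.

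Of the Wnt pathway lists, targets and feedback genes (25%) and ligands (26.3%) had the highest shares of genes at least 50 points towards TCF7L2, beside 6.27% of all genes. Most of the ligand genes behind their share had few TCF7L2 peaks, as given below. Of 24 targets and feedback genes 20 had TCF7L2 and 21 had H3K27Ac, with medians of 2.5 and 3 against 1 and 4 over all genes, and 6 stood at least 50 points towards TCF7L2 and none towards H3K27Ac. AXIN2, a scaffold that limits beta-catenin and a classical readout of the pathway, had 17 TCF7L2 peaks with a median of 52 tags beside 3 H3K27Ac peaks. DKK1, a secreted inhibitor of LRP receptors, had 6 beside 0, and the Dishevelled antagonist genes NKD1 and NKD2 had 5 and 2 beside 3 and 0. DKK3 had 4 beside 3 and MYC 8 beside 4. ZNRF3 and RNF43, ligases that remove Wnt receptors from the cell surface, had 22 and 19 TCF7L2 peaks beside 13 and 8 H3K27Ac peaks. CD44 had 13 beside 7. ASCL2, SFRP2, SFRP5 and DKK4 had no TCF7L2 peak.

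Upstream in the pathway, ligand genes stood to both sides of the ranking and the destruction complex to neither. Of 19 Wnt ligand genes 13 had TCF7L2 and 16 had H3K27Ac, with 5 towards TCF7L2 and 2 towards H3K27Ac. WNT16 had 12 TCF7L2 peaks and 1 H3K27Ac peak, and WNT5A and WNT2B had 0 and 7 each. The other ligand genes towards TCF7L2 rest on few peaks. WNT9B had 3 TCF7L2 and 2 H3K27Ac peaks, WNT8A had 2 and 1, and WNT6 and WNT10A, whose windows overlap, had 2 and 0 each. Of 18 receptor genes 15 had TCF7L2 and 17 had H3K27Ac, and FZD6 (4 TCF7L2 peaks and 1 H3K27Ac peak) and FZD1 (2 and 1) stood towards TCF7L2. ROR1 had 3 TCF7L2 and 26 H3K27Ac peaks. Beta-catenin and the 12 other genes of its destruction complex and its control had TCF7L2 near 12 of 13 and H3K27Ac near all, with medians of 2 and 7 and none at least 50 points to either side. Of 14 TCF/LEF factors and nuclear partners 13 had each mark, with medians of 3 and 7. TCF7L2 itself had 12 TCF7L2 and 4 H3K27Ac peaks and was the 1 gene of these that stood towards TCF7L2. CTBP2, a corepressor gene, had 12 and 19, and BCL9L, a coactivator gene, 10 and 5.

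Gene families named by their symbols, with members that often share peaks, fell into different places. Of 39 HOX genes 17 (43.6%) stood at least 50 points towards TCF7L2, beside 6.27% of all genes. The 9 HOXD genes had 0 to 3 TCF7L2 peaks each and no H3K27Ac peak, the HOXB genes from HOXB3 to HOXB9 had 5 or 6 TCF7L2 and 1 to 3 H3K27Ac peaks, and the HOXC genes had more H3K27Ac than TCF7L2 peaks. Of 53 clustered protocadherin genes 18 (34.0%) stood towards TCF7L2, but they share windows and rest on few peaks. The 15 PCDHA genes had 3 TCF7L2 peaks each and no H3K27Ac peak, and all stood towards TCF7L2. The 22 PCDHG genes had 3 each beside 2 to 8 of H3K27Ac, and 15 of the 16 PCDHB genes had no TCF7L2 peak. Of 18 KLF genes 4 (22.2%) stood at least 50 points towards TCF7L2, and of 94 keratin-associated protein genes 16 (17.0%) did. Of 8 SMAD genes SMAD3, SMAD6 and SMAD7 had 35, 12 and 10 TCF7L2 peaks, and the other 5 had 0 or 1.

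Of all lists, olfactory receptor genes had either mark least often, with TCF7L2 near 14.3% and H3K27Ac near 44.2% of 412. TCF7L2 was also rare near 24 taste receptor genes (20.8%) and 40 beta defensin genes (25%). The 508 zinc finger genes named ZNF had TCF7L2 near 53.5% and H3K27Ac near 94.9%, and the 53 FOX genes had TCF7L2 near 54.7% and H3K27Ac near 88.7%. Of 82 cytosolic ribosomal protein genes 86.6% had TCF7L2, of 69 replication-dependent histone genes 88.4%, and of 14 housekeeping genes 12, beside 66.7% of all genes. Solute carrier genes (67.9% of 374), SOX genes (68.4% of 19) and potassium channel genes (57.9% of 95) lay closer to that share.

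**Figure D5:**
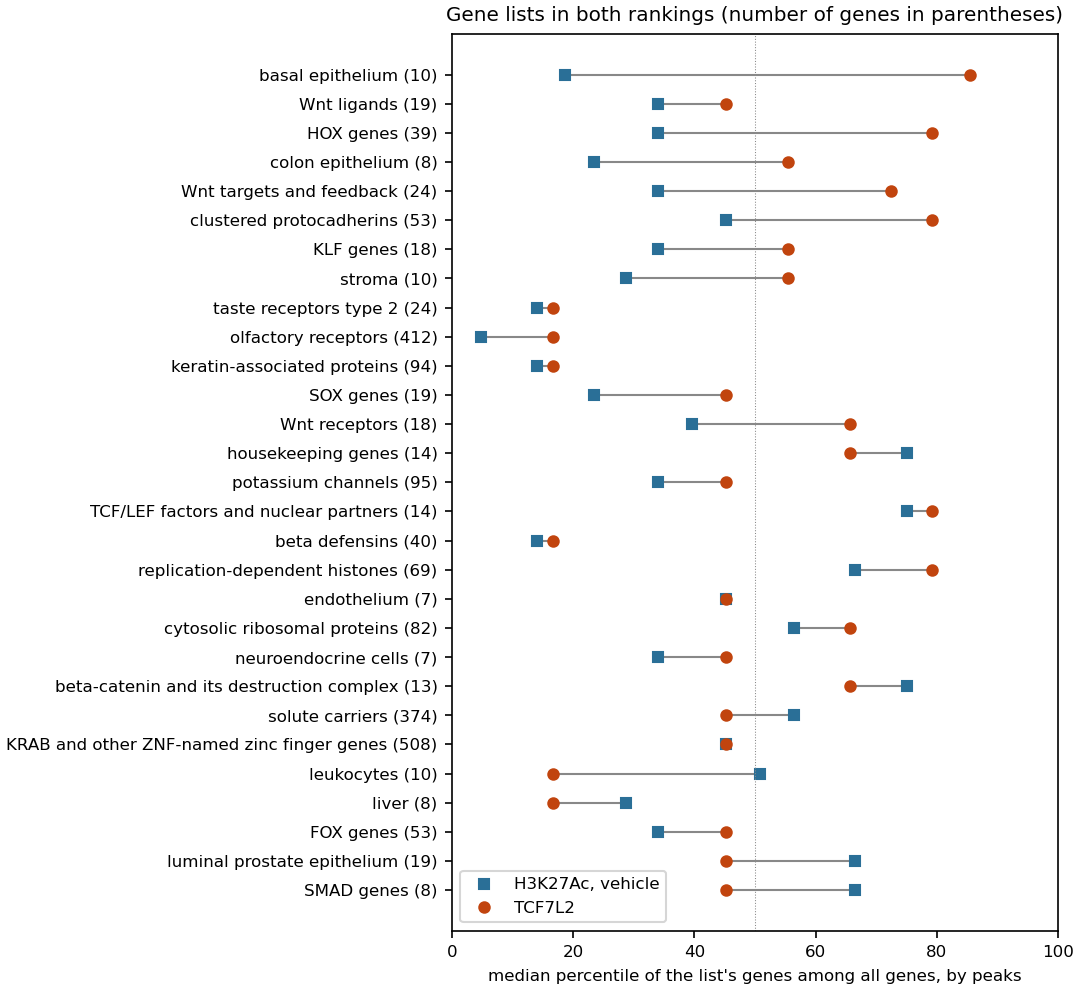
Median percentile of each gene list in the TCF7L2 ranking (orange circles) and the H3K27Ac ranking (blue squares) among all 20162 genes, ordered by the median difference of the list's genes, with the number of genes in parentheses. The dotted line marks 50, and the median of all genes was 45.3 by TCF7L2 and 45.2 by H3K27Ac because of ties. Basal, HOX and clustered protocadherin genes lie to the right of 50 by TCF7L2 and to the left of it by H3K27Ac. So do colon, stromal and KLF genes, Wnt receptors, and Wnt targets and feedback genes. Leukocyte, luminal prostate, liver, SMAD, solute carrier, housekeeping and destruction complex genes lie higher by H3K27Ac in these medians. The median difference of the genes nevertheless lay towards TCF7L2 for housekeeping (10.4 points), destruction complex (1.32) and solute carrier genes (0.084).

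The balance of both lists differed between chromosomes. Chromosome 17 had 53.5 TCF7L2 peaks for every 100 of H3K27Ac and a mean of 2.79 TCF7L2 peaks per gene, against 1.84 over all genes. Chromosome 10, with VTI1A, DHX32, FANK1, MPP7, KLF6 and DKK1, had 48.3 for every 100 and 2.64 per gene. Chromosome 21, with NCAM2, had 24.4 for every 100 and 1.15 per gene, and chromosome X, with ARHGAP6, had 21.3 for every 100 and 0.620 per gene. H3K27Ac peaks per gene averaged 5.42 on chromosome 17, 5.27 on 10, 4.11 on 21 and 2.79 on X. How many copies of each chromosome the cells carried was not measured in these data.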

How the data were processed

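Peaks of H3K27Ac with vehicle, H3K27Ac with DHT and TCF7L2 were used as deposited, 1 list per library. By the paper, the authors used Bowtie 2 for H3K27Ac and ELAND for TCF7L2 to align reads to hg19. Sole-search then called the peaks of each library on its own, and its settings were stricter for H3K27Ac. The submitters' processing notes name CASAVA 1.8.2, Bowtie2 and BWA for every library, so the aligner is not settled. Each peak was deposited with its height, a signal that counts the tags piled up at it. No source says it was scaled to depth, and reads per library are unknown here, so heights are compared within a list only.

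The 20162 protein-coding genes are those of GENCODE release 44 lifted to GRCh37, without copies of pseudoautosomal genes. Overlaps needed 1 bp. Ranks were percentiles with ties at their mean. The members, gene lists and limits were chosen with earlier results of these data known. Named genes were the 15 with most peaks of each kind, the 10 densest per 100 kb and the 10 with the largest rank difference in each direction (1 gene among overlapping windows), and the extremes of the lists. Further genes were picked with their values in view, and genes of chromosome Y were not named. Some genes that the rule names, and 1 gene list, are not reported here. Of the marker symbols, 1 endothelial gene was not matched. Columns of other samples numbered 0. The TCF/LEF forms were counted on both strands. On simulated data of 2000 genes and 12000 peaks the counts differed from bedtools by 0. Alternatives covered the window, the number of peaks, the peak center, covered base pairs and density. Tools were bedtools 2.31.1, samtools 1.23.1 and Python 3.11.15 with scipy 1.17.1, pandas 2.3.3, pyfaidx 0.9.0.4, numpy 2.4.6 and matplotlib 3.10.9.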

Additional observations from a re-analysis of the deposited data

How the results depend on the processing

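No paired analysis was possible because each kind had 1 library. Of 53 alternative values, 39 stayed near the reported one and 14 moved, where near means within 1.5 times for a count and within the 95% interval of the reported value, over genes or peaks, for a correlation or a share. No correlation changed sign. With 10 kb on each side 938 genes had TCF7L2 and no H3K27Ac. With 100 kb 357 did, 3535 had H3K27Ac and no TCF7L2, and rho was 0.389. With 50 kb around the gene start only rho was 0.331, and per 100 kb of window it was 0.350. With the 15000 tallest TCF7L2 and 25000 tallest H3K27Ac peaks rho was 0.300, 22.2% of TCF7L2 peaks overlapped H3K27Ac and 1432 genes had TCF7L2 alone, and with the 15000 tallest of each these were 0.269, 16.3% and 2919, since fewer H3K27Ac peaks remained. By the peak center 31.5% overlapped. On autosomes only, an alternative chosen after seeing the data, rho was 0.349, and with 1 gene among overlapping windows, likewise chosen, it was 0.354 over 7113 genes. The numbers of genes at least 50 points apart stayed within 1.5 times of 1264 and 1157 in every alternative run, from 1094 to 1422 towards TCF7L2 and from 1342 to 1725 towards H3K27Ac. More genes stood towards H3K27Ac in 7 of the 8 alternatives, and more towards TCF7L2 only as reported and with the 15000 tallest of each.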
